A study of Mus musculus with 27 samples.

Results

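The enzymes that write, maintain and remove methyl groups on cytosine were followed through 10 days of mouse embryonic stem cell differentiation. The 7 genes are Dnmt1, Uhrf1, Dnmt3a, Dnmt3b, Dnmt3l, Tet1 and Tet2, chosen by the gene symbols of the array's annotation, out of 13297 genes tested. They are read by 19 probe sets, sets of short probes against one transcript, of which 18 passed the filter on low signal. Of several probe sets for 1 gene, that with the highest average across the 27 arrays stands for the gene. The other probe sets serve as a check for the 6 genes that have them, and Dnmt3l has 1 probe set.

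Embryonic stem cells of the AB2.2 line carried a lentivirus with enhanced green fluorescent protein and a short hairpin RNA (shRNA), directed against firefly luciferase in the control arm and against Sox17, an endoderm transcription factor, in the other. Both arms were thus transduced and sorted for fluorescence, then aggregated as embryoid bodies in hanging droplets and plated after 4.5 days. Total RNA was taken on 7 days, the undifferentiated day 0 and days 2 and 4 before and 5, 6, 8 and 10 after plating, giving 14 control arrays and 13 Sox17 shRNA arrays, 2 biological replicates per arm and day except for 1 Sox17 shRNA array on day 0. The labels do not say whether replicates came from separate transductions, so p-values measure the spread between these arrays, and both arms are bulk mixtures of cell types. In such mixtures fewer cells of a type and less RNA per cell cannot be told apart. All levels below are log2 values on the RMA scale, all differences are log2 differences, and a gene is called changed at a limma adjusted p below 0.05.

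In mammals Dnmt3a and Dnmt3b place methyl groups on unmethylated CpG sites, and Dnmt3l, which has no catalytic activity of its own, binds and stimulates them. Dnmt1 copies methylation onto the new strand after replication, guided by Uhrf1, which recognises hemimethylated DNA. Tet1 and Tet2 oxidise methylcytosine, a step toward its removal, and naive embryonic stem cells are known for low methylation that is gained as they pass to an epiblast-like state. The arrays measured messenger RNA, not protein or methylation.

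The promoters of the members are shown because the genes differ in the CpG content of the starts used and because the members followed different time courses. From RefSeq (GRCm38.p6), 14 start sites of the 7 genes were used, and each window runs from 250 bases before to 50 bases after the start. Starts are numbered among these windows only. The gene intervals of Dnmt3a (from chr12:3801559), Tet1 (to chr10:62887469) and Tet2 (to chr3:133545136) begin upstream of the first start used. Capitals mark CpG dinucleotides in the first set, written 5′ to 3′ on the gene's strand.
Dnmt3b (chr2:153649199-153649498, plus strand): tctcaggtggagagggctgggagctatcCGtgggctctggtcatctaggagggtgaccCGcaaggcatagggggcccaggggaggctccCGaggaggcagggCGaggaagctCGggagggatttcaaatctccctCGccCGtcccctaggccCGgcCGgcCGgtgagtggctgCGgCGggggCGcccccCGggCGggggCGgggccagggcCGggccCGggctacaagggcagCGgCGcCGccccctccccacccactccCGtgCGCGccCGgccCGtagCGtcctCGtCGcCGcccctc
Dnmt3a, the first start (chr12:3806730-3807029, plus strand): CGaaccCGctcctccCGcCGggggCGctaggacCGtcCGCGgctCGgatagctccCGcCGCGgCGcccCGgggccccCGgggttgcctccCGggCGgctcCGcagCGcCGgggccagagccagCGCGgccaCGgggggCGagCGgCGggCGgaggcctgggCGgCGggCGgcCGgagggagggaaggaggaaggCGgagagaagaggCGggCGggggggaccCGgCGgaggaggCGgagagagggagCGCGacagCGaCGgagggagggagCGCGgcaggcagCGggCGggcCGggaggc
Dnmt3a, the third start (chr12:3891494-3891793, plus strand): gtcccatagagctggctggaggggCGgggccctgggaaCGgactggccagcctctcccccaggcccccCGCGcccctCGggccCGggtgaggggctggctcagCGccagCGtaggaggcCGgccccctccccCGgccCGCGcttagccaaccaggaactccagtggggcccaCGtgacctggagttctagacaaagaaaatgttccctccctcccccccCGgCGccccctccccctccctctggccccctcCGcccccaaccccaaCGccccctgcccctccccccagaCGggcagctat
Dnmt3l, the first start (chr10:78042037-78042336, plus strand): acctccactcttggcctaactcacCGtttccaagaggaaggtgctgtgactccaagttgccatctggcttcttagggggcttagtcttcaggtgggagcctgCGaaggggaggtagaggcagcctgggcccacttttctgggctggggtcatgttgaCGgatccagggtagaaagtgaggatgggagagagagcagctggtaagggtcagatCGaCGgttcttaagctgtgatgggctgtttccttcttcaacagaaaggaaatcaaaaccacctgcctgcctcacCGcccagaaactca
Tet1 (chr10:62887275-62887574, minus strand): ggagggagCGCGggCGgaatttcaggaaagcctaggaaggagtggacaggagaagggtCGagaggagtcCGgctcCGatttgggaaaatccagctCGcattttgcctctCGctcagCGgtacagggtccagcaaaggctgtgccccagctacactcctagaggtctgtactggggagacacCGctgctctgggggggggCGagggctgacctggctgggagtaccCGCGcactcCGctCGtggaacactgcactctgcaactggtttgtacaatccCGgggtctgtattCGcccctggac
Tet2 (chr3:133544341-133544640, minus strand): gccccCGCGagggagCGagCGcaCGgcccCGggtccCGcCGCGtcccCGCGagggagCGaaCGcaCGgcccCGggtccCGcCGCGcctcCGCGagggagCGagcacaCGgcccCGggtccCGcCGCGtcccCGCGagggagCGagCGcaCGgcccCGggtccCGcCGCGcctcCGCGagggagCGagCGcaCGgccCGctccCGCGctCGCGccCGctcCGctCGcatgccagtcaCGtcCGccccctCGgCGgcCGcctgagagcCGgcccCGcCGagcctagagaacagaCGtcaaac
The Tet2 window held 57 CpG, more than 99.85% of the 32851 windows of the table, whose median is 7. The Dnmt3a first start held 46, the Dnmt3b start 30 and the Tet1 start 17. The 3 Dnmt3l windows held 6, 4 and 3. The third Dnmt3a start lies 84764 bases downstream of the first, inside the gene (chr12:3801559-3914443), and held 18 CpG. The mouse gene is known to give a long and a short protein from separate promoters.

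For Dnmt1 and Uhrf1, the maintenance pair, capitals instead mark matches on either strand to CCAAT, the CCAAT box, and to TTTNNCGC, an E2F-type motif with N any base.
Dnmt1, the third start (chr9:20952574-20952873, minus strand): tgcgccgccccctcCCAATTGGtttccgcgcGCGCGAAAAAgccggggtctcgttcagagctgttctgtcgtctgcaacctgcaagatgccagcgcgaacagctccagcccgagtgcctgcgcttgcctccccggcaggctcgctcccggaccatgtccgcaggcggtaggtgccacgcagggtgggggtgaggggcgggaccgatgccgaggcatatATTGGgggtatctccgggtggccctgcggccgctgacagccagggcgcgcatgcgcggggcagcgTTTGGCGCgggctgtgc
Uhrf1, the second start (chr17:56304063-56304362, plus strand): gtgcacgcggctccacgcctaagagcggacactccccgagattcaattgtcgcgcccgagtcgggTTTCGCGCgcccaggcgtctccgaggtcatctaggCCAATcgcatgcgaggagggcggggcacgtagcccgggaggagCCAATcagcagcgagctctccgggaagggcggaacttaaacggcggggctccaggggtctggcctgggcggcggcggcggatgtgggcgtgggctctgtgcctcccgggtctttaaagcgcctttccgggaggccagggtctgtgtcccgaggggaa
The E2F-type letters occurred 3 times in the Dnmt1 window, counting overlapping matches, and 1 time in the Uhrf1 window, and they are held by 5.17% of all windows. CCAAT occurred 3 times in the Dnmt1 window and 2 times in the Uhrf1 window, against 37.4% of all windows with at least 1 match. The first Dnmt1 window, not shown, held 5 CCAAT and 0 E2F-type matches, the second 0 of either, and the first Uhrf1 window 3 and 1. None of the 9 windows of the other 5 members held either motif. A Sox-type string, ACAATNG on either strand, was matched in the Uhrf1 window shown and in none of the other 13 member windows, and 8.09% of all windows hold it. These are matches of letters only.

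Sox17 served as the check of the knockdown. Control arrays read 3.75 and 3.92 on day 0, 6.01 and 6.17 on day 2, and 9.35 to 10.66 from day 4 on. Sox17 shRNA arrays read 3.69 on day 0, 4.48 and 5.12 on day 2, 5.53 and 9.39 on day 4, 7.77 and 10.08 on day 5, 8.60 and 9.39 on day 6, 7.90 and 8.54 on day 8, and 6.71 and 7.19 on day 10. The Sox17 shRNA arrays lay below both controls of their day except that replicate 2 of day 6 (9.39) lay between them. The bioB spike-in control, which reports hybridisation, averaged 8.86 to 9.37 on the arrays of days 0 and 2 and on replicate 1 of day 4 in both arms, 7.67 on Sox17 shRNA replicate 1 of day 5, and 6.19 to 7.01 elsewhere. Changes from day 0 to days 5 to 10 therefore cannot be told apart from this shift, while the arms are alike in it at each day except day 5. Day 4 replicate 1, whose spike-in signal was like that of day 0, differed from day 0 by 2.76 for Dnmt3b, -3.74 for Dnmt3l, -2.91 for Tet1 and -3.96 for Tet2. The actin 3′ minus 5′ difference, a sign of RNA quality, was highest on Sox17 shRNA replicate 2 of day 4 (0.862) and of day 6 (0.753), and at most 0.548 elsewhere.

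Dnmt3b, a de novo methyltransferase, rose 8.17-fold between days 0 and 2 in the control arm and then fell, and at days 8 and 10 it did not pass the test against day 0. Its control arrays read 9.74 and 9.57 on day 0, 12.64 and 12.73 on day 2, 12.41 and 12.23 on day 4, 11.78 and 11.81 on day 5, 10.95 and 10.87 on day 6, 9.93 and 9.29 on day 8, and 9.54 and 9.46 on day 10. All arrays of days 2 to 6 lay above both day 0 arrays, and those of days 8 and 10 lay around or below them. The difference from day 0 was 3.03 on day 2 (SE 0.32, limma adjusted p = 8.87e-07), 2.67 on day 4, 2.14 on day 5 and 1.25 on day 6 (adjusted p = 0.00231). It was -0.05 on day 8 (adjusted p = 0.903) and -0.16 on day 10 (adjusted p = 0.661). The second Dnmt3b probe set rose by 3.86 on day 2.

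Dnmt3a, the other de novo methyltransferase, rose on day 2 and fell again by day 4. Its control arrays read 8.57 and 8.54 on day 0, 10.73 and 10.78 on day 2, and 8.32 and 8.28 on day 4. From day 5 to day 10 they lay between 7.99 and 8.43, so the day 2 arrays stood apart from all other days of this arm. The rise on day 2 was 2.20 (4.60-fold, SE 0.14, limma adjusted p = 1.44e-09), and the fall from day 2 to day 4 was -2.46 (adjusted p = 1.48e-09), a comparison added after the data were seen. At the same step Dnmt3b changed by -0.36 (SE 0.32, adjusted p = 0.401). Small differences from day 0 passed the test on day 5 (-0.52, adjusted p = 0.00363) and day 10 (-0.34, adjusted p = 0.0335). Leaving out any of the 4 arrays concerned put the adjusted p on day 10 between 0.079 and 0.121.

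The 5 Dnmt3a probe sets, numbered 1 to 5 from the highest mean level down, did not give 1 time course. Probe sets 1, which stands for the gene, 2 and 4 rose on day 2 by 2.20, 2.40 and 1.61 in the control arm. Probe set 5 differed from day 0 by 0.30 on day 2 (adjusted p over all probe sets = 0.537) and rose by 3.02 on day 10 (SE 0.31, adjusted p = 1.65e-07). Its control arrays read 5.05 and 5.08 on day 0, 5.19 and 5.53 on day 2, 6.27 and 6.20 on day 6, and 8.12 and 8.05 on day 10. Probe set 3 rose by 0.87 on day 2 and by 2.20 on day 10 (adjusted p = 1.89e-07). The late rise was present in the Sox17 shRNA arm too, by 2.37 for probe set 3 and 2.85 for probe set 5 between days 4 and 10. The files give no position of the probes within the transcripts, so whether the probe sets read different Dnmt3a transcripts was not tested. The Dnmt3a fall on day 10 given above holds for probe sets 1 and 2 (-0.72 for the latter, adjusted p = 0.0182), while probe set 4 stood at 0.33 (adjusted p = 0.153), and the remaining pair rose.

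**Figure D1:**
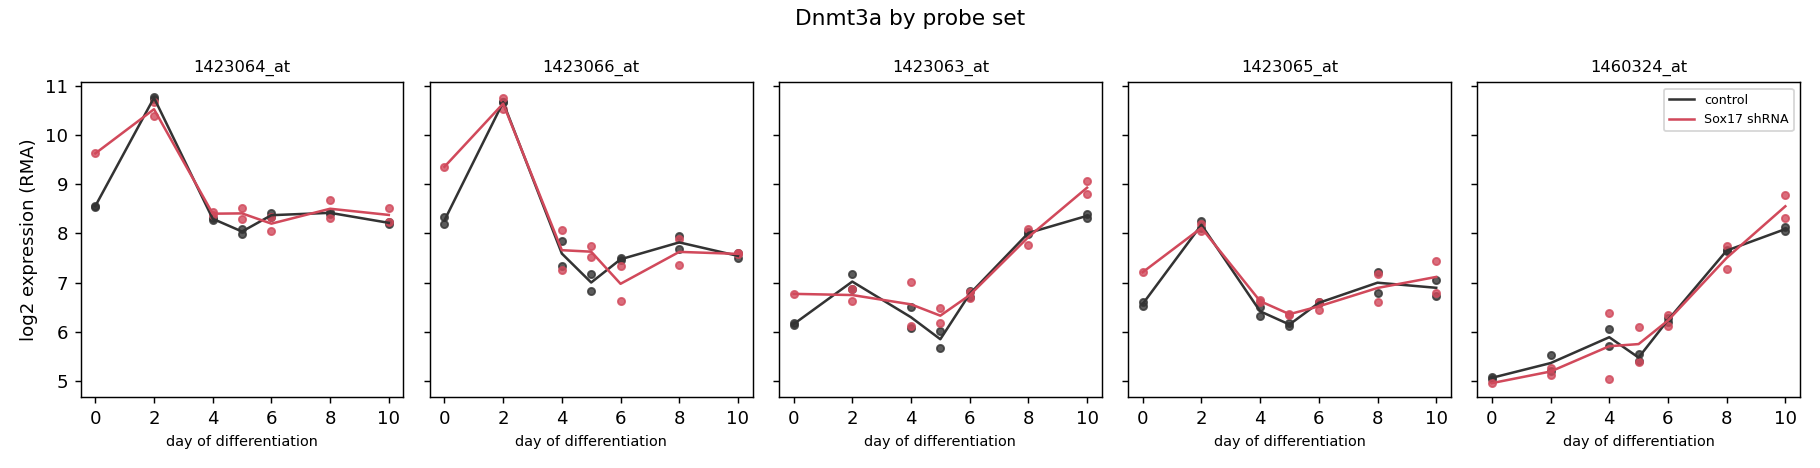
Log2 expression (RMA) of Dnmt3a by day of differentiation in each of its 5 probe sets, ordered by mean level, with 1 point per array and lines through group means. Probe sets 1, 2 and 4 peak on day 2, whereas probe set 5 climbs from 5.05 and 5.08 on day 0 to 8.12 and 8.05 on day 10 in control arrays and probe set 3 is highest on day 10.

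Dnmt3l, the catalytically inactive cofactor, fell from day 2 to day 4 in both arms. Control arrays read 10.97 and 10.91 on day 0, 10.51 and 10.59 on day 2, 7.20 and 7.34 on day 4, and 5.81 and 6.27 on day 5. From day 6 on they lay between 5.33 and 5.83, near the filter level of 5.53. The difference from day 0 was -0.39 on day 2 (SE 0.26, limma adjusted p = 0.283), -3.67 on day 4 (12.8-fold lower, adjusted p = 2.78e-09) and -5.59 on day 10 (adjusted p = 5.91e-12). The day 10 arrays (5.33 and 5.36) lay below the filter level, so no fold is given for them. On day 2, when both methyltransferases were highest in the control arm, Dnmt3l had not passed the test for a fall.

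Tet1, a methylcytosine oxidase, was lower than on day 0 on every later day of the control arm. Control arrays read 11.51 and 11.48 on day 0, 10.41 and 10.45 on day 2, 8.58 and 8.58 on day 4, 7.96 and 8.16 on day 5, 8.35 and 7.80 on day 6, 7.82 and 7.71 on day 8, and 7.85 and 7.93 on day 10. No array of a later day reached the level of day 0 or, after day 2, that of day 2. The fall was -1.06 on day 2 (SE 0.20, limma adjusted p = 5.22e-04), -2.91 on day 4 and -3.60 on day 10 (12.2-fold, adjusted p = 6.34e-11). The other Tet1 probe sets that passed the filter fell by 1.11 and 1.01 on day 2, and one more averaged 4.42 over all arrays and did not pass the filter.

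Tet2, the other oxidase, fell by day 2 to near the filter level of 5.53 and rose again from day 4 to day 10. Control arrays read 9.56 and 9.49 on day 0, 5.57 and 5.77 on day 2, 5.56 and 5.60 on day 4, 6.31 and 6.23 on day 5, 7.13 and 7.03 on day 6, 7.05 and 7.20 on day 8, and 7.48 and 7.55 on day 10. The arrays of days 2 and 4 were the lowest and did not overlap those of any later day. The fall was -3.85 on day 2 (SE 0.21, limma adjusted p = 3.77e-10) and -3.94 on day 4. Between days 4 and 10 Tet2 rose by 1.94 (adjusted p = 1.03e-06), and its difference from day 0 was then -2.01. Day 4 replicate 2, which shared its low spike-in signal with day 10, gave 1.92.

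Dnmt1 and Uhrf1, the maintenance pair, were lower than on day 0 on every later day of the control arm. Dnmt1 control arrays read 10.46 and 10.29 on day 0, 9.73 and 10.01 on day 2, 9.51 and 9.60 on day 4, 9.24 and 9.56 on day 5, and 9.55 to 9.95 from day 6 on. Both day 0 arrays lay above every later control array. The difference was -0.51 on day 2 (SE 0.14, limma adjusted p = 0.00894), -0.98 on day 5 (adjusted p = 9.90e-06) and -0.44 on day 10 (adjusted p = 0.00879). Without control replicate 1 of day 0 the Dnmt1 adjusted p was 0.0501 on day 8 and 0.0807 on day 10, and with the spike-in signal in the fit it was 0.0801 on day 10. Uhrf1 read 10.50 and 10.36 on day 0, 9.95 and 10.11 on day 2, 9.35 and 9.15 on day 4, 8.91 and 8.87 on day 5, and 9.06 to 9.29 from day 6 on. Its day 5 arrays were the lowest of this arm. The Uhrf1 difference was -0.41 on day 2 (SE 0.14, adjusted p = 0.0315), -1.54 on day 5 (2.91-fold, adjusted p = 4.20e-08) and -1.16 on day 10. The Dnmt1 call on day 2 was lost without control replicate 1 of day 0 (adjusted p = 0.0933) or of day 2 (0.127), and the Uhrf1 call on day 2 without any of its 4 arrays (0.0506 to 0.196).

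**Figure D2:**
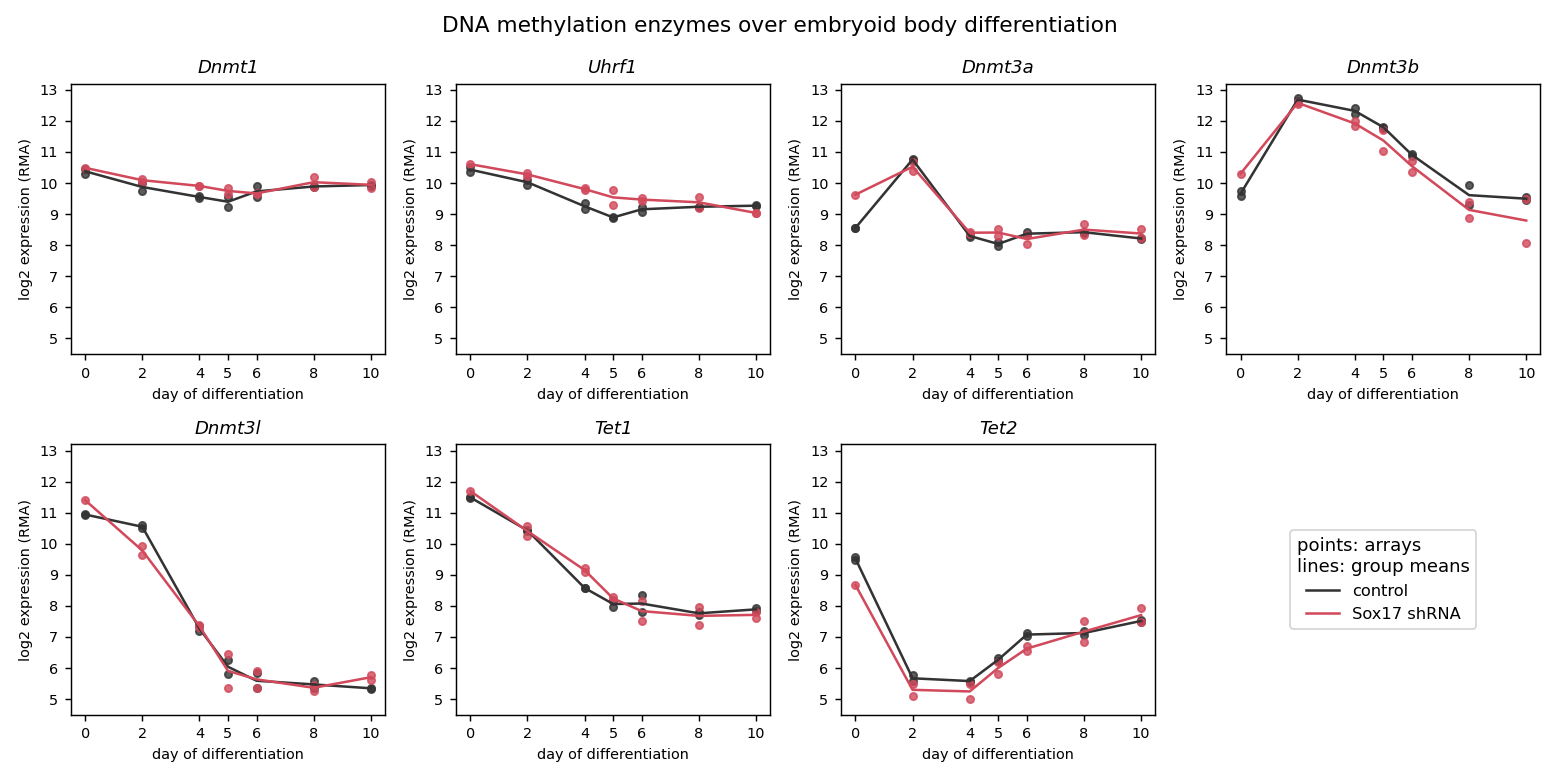
Log2 expression (RMA) of the 7 genes by day of differentiation, 1 panel per gene, with 1 point per array and lines through group means for the control (dark) and Sox17 shRNA (red) arms. Dnmt3b and Dnmt3a peak on day 2, Tet2 is lowest at days 2 and 4, and Dnmt3l and Tet1 decline; levels are not comparable between panels because probe sets differ in affinity.

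**Figure D3:**
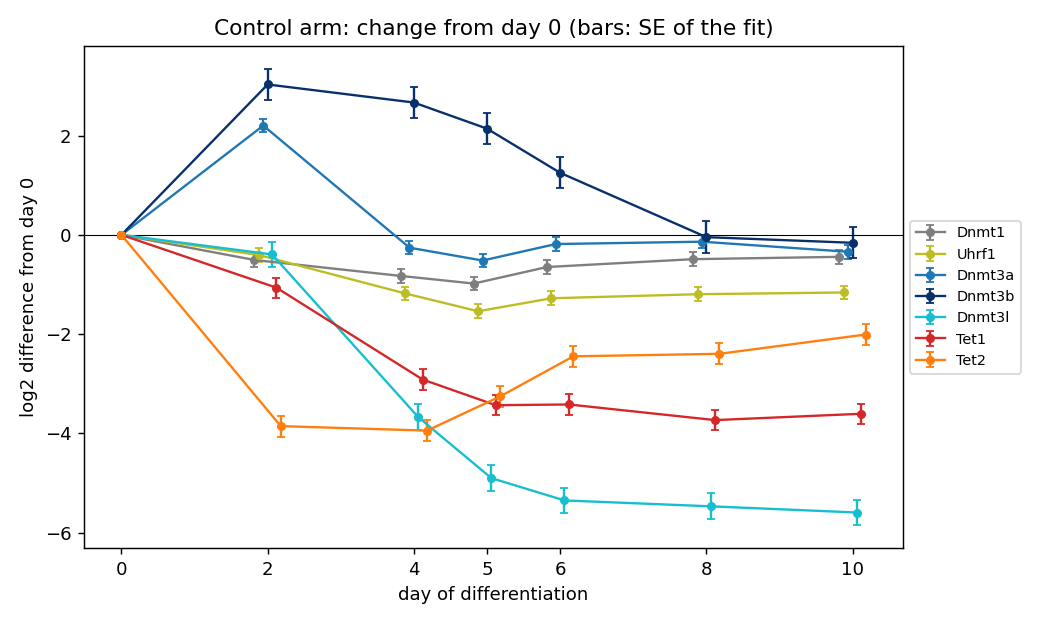
Log2 difference of each gene from day 0 in the control arm, with bars giving the SE of the fit and points shifted slightly along the day axis. Dnmt3b stands 3.03 above day 0 on day 2 and Tet2 at -3.85, and Dnmt3l ends at -5.59.

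All comparisons with day 0 share its 2 control arrays. Against day 0, 6 of the 7 members were called on day 2 (2 higher, 4 lower), 6 on day 4, 7 on day 5, 6 on day 6, 5 on day 8 and 6 on day 10. Of all genes, 32.1% were called on day 2, 46.1% on day 4, 57.4% on day 5, 63.1% on day 6, 72.2% on day 8 and 71.5% on day 10. The median difference of the members on day 10 was -1.16, against -0.13 over all genes tested. Between days 4 and 10 of the control arm 5 members were called (2 higher, 3 lower), where 52.3% of genes were called, and in the Sox17 shRNA arm 5 (1 higher, 4 lower), where 55.0% were. Between days 2 and 4, Dnmt3a, Dnmt3l, Tet1 and Uhrf1 fell in both arms, against 32.5% of genes called in the control arm and 23.4% in the Sox17 shRNA arm. The Uhrf1 fall in the Sox17 shRNA arm (-0.47, adjusted p = 0.0200) did not pass with array weights (0.123), the spike-in covariate (0.0516), the actin covariate (0.0672), the arrays of that arm alone (0.116), without both arrays of high actin 3′ minus 5′ difference (0.127), or in 3 of 4 fits without 1 array (0.0582 to 0.123).

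The order of the 14 group levels differed between the genes. Neighbouring groups in that order did not overlap in 10 of 13 pairs for Dnmt3b, 7 for Tet2, 6 each for Tet1 and Uhrf1, 5 each for Dnmt3a and Dnmt3l, and 4 for Dnmt1, beside a median of 3 over all genes. The groups were ordered by each gene's own means, and 1 of the 14 is a single array. The group means of Dnmt3l spanned 6.06 and those of Dnmt1 1.09. From the highest down, the Dnmt3b groups were day 2 (control, then Sox17 shRNA), day 4, day 5, day 6, day 0 and days 8 and 10, with control above Sox17 shRNA at days 2 to 6 and the Sox17 shRNA arm above control on day 0. The Dnmt3b neighbours that overlapped were control days 0 and 8, control days 8 and 10, and Sox17 shRNA days 8 and 10, and the Dnmt3l groups below day 4 overlapped each of their neighbours.

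Over the 14 group means, the members most alike were Dnmt3l and Tet1 (Pearson r = 0.987), followed by Tet1 and Uhrf1 (0.939), and the most opposed were Dnmt3b and Tet2 (-0.777). These points share the time course, so r describes likeness of shape only. Among all genes tested, the 3 most like Dnmt3b were Bub3 (0.975), Dhx33 and Metap1. Those most like Dnmt3a were Stk17b (0.952), Gm9564 and Nexmif. For Dnmt3l they were Pla2g1b (0.996), Rbmxl2 and Lamtor2, and for Tet1 Wdr31 (0.993), Pnldc1 and Chchd5. For Tet2 they were Pura (0.968), Vps39 and Gabbr1, for Dnmt1 Ier2 (0.972), Dhx35 and Fzr1, and for Uhrf1 Rcc2 (0.973), Mthfd2 and Nufip1. With the 7 control groups alone, Vps39 for Tet2 was the 1 gene of these that was again among the first 3.

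The design also asks whether the members differ between the arms. Of all genes, 1.89% were called between the arms on day 0, 2.54% on day 2, 5.14% on day 4, 9.39% on day 5, 5.20% on day 6, 4.82% on day 8 and 10.0% on day 10. Members called were 1 (Dnmt3a) on day 0, none on day 2, 1 (Uhrf1) at days 4 and 5, and none at days 6, 8 and 10. At an unadjusted p below 0.05 limma gave 2 members on day 0 (Dnmt3a and Tet2), 1 on day 2 (Dnmt3l), 3 on day 4 (Dnmt1, Tet1 and Uhrf1), 3 on day 5 (Dnmt1, Dnmt3a and Uhrf1), 2 on day 6 (Tet2 and Uhrf1), 0 on day 8 and 1 on day 10 (Dnmt3b). Of all genes 13.8%, 13.7%, 17.9%, 22.5%, 16.9%, 15.3% and 21.8% were below it on those days. Averaged over days 4 to 10, with 10 arrays per arm, 2 of 7 members were called, beside 27% of all genes. On day 2 the Sox17 shRNA arrays read 12.61 and 12.55 for Dnmt3b and 5.11 and 5.49 for Tet2.

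With Sox17 shRNA, Dnmt3b was lower when days 4 to 10 were averaged. The Sox17 shRNA arrays read 12.005 and 11.83 on day 4, 11.02 and 11.72 on day 5, 10.37 and 10.72 on day 6, 8.87 and 9.40 on day 8, and 8.08 and 9.50 on day 10. They lay below both controls of the day at days 4, 5 and 6, where the arms did not overlap in 33.3%, 52.3% and 46.1% of all genes, and the arms overlapped at days 8 and 10. The average difference was -0.47 (1.39-fold, SE 0.14, limma adjusted p = 0.0177), and the second probe set gave -0.53 (adjusted p over all probe sets = 0.0149). Leaving out 1 array at a time kept the average between -0.62 and -0.33. At no single day did the difference pass the test, and on day 10 (-0.70, adjusted p = 0.196) it was -1.41 without Sox17 shRNA replicate 2 and 0.0056 without replicate 1. With the difference on day 2 subtracted, an alternative added later, the average was -0.37 (adjusted p = 0.793).

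Uhrf1 was higher in the Sox17 shRNA arm at days 4 and 5. Sox17 shRNA arrays read 9.85 and 9.76 on day 4 and 9.78 and 9.29 on day 5, all above the controls of those days, which read 9.35 and 9.15 and then 8.91 and 8.87. The difference was 0.55 on day 4 (SE 0.14, limma adjusted p = 0.0282) and 0.65 on day 5 (adjusted p = 0.00733), and 0.28 on average over days 4 to 10 (1.22-fold, SE 0.06, adjusted p = 0.002). Over days 6 to 10 the average was 0.07 (adjusted p = 0.606). With the difference on day 2 subtracted it was 0.30 on day 4 (adjusted p = 0.748), 0.39 on day 5 (0.446) and 0.03 on average over days 4 to 10 (0.974). On day 10 the Sox17 shRNA arrays (9.03 and 9.04) lay below both controls (9.25 and 9.29), a difference of -0.23 (adjusted p = 0.372). The arms did not overlap on day 10 in 61.5% of all genes. The change from day 4 to day 10 differed between the arms by -0.79 (SE 0.20, adjusted p = 0.0286), where 3.86% of genes were called. Without 1 array this value lay between -0.89 and -0.69, and with array weights it was not called. The second Uhrf1 probe set gave 0.04 on day 4 (adjusted p over all probe sets = 0.976), 0.79 on day 5 (0.131) and 0.07 on average (0.781). Without 1 array the adjusted p on day 4 lay between 0.038 and 0.177 and on day 5 between 5.68e-04 and 0.161. On day 5 the arms also differed in spike-in signal, and with that signal in the fit the difference was 0.59 (adjusted p = 0.00705).

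Dnmt1 lay 0.36 higher on day 4 (limma adjusted p = 0.167) and 0.35 higher on day 5 (0.135). Sox17 shRNA arrays read 9.91 and 9.90 on day 4 and 9.84 and 9.66 on day 5, above all controls of those days. Tet1 lay 0.57 higher on day 4, where Sox17 shRNA arrays read 9.22 and 9.09 against 8.58 and 8.58 (adjusted p = 0.118). The spike-in signal on day 4 was like between arrays of the same replicate number, and within replicate 1 and replicate 2 the Tet1 difference was 0.64 and 0.51, with an adjusted p of 0.0292 under a replicate block within day. The labels do not say that a number marks a shared batch. Dnmt3l on day 2 read 9.93 and 9.64 against 10.51 and 10.59, without overlap (-0.76, adjusted p = 0.147). Arms that do not overlap were common, at 48.4% of all genes on day 2, 33.3% on day 4 and 52.3% on day 5.

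For all 7 members, and in 78.8% of all genes, the 1 Sox17 shRNA array of day 0 lay above or below both controls. For Dnmt3a it read higher than both. It stood at 9.63, above the controls at 8.57 and 8.54, a difference of 1.07 (SE 0.17, limma adjusted p = 0.0022) that has no replicate on the Sox17 shRNA side and takes its error from the spread of the other groups. Probe set 2 gave 1.09 (adjusted p over all probe sets = 0.0942) and probe set 5 gave -0.11. On the same array Tet2 read 8.68 against 9.56 and 9.49 (-0.85, adjusted p = 0.103) and Dnmt3b 10.30 against 9.74 and 9.57 (0.65, adjusted p = 0.518). The test of whether the Dnmt3a arm difference varied over the 7 days passed (F = 7.74, adjusted p = 0.0102), where 6.75% of genes were called, but with the other 4 probe sets its adjusted p was 0.133 to 0.927. Over days 2 to 10 alone, a test added later, the variation did not pass for Dnmt3a (adjusted p = 0.383) or any other member in limma, with 5.23% of genes called, and 1 member, Uhrf1, had an unadjusted p below 0.05.

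**Figure D4:**
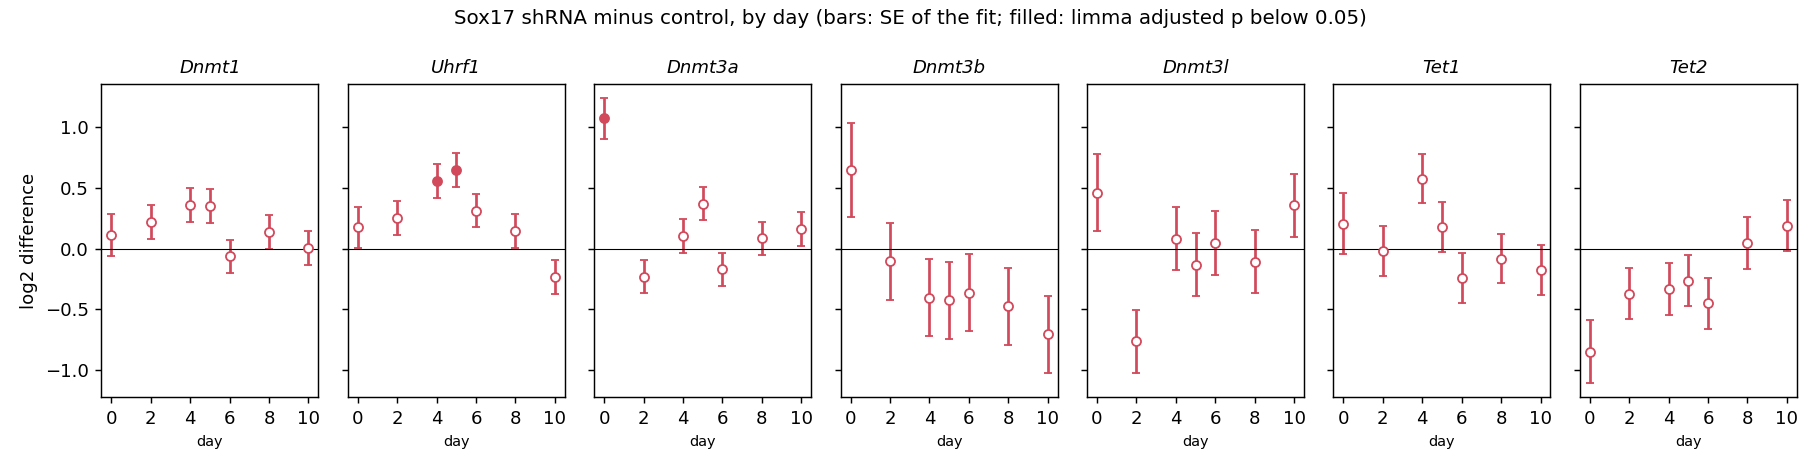
Log2 difference between the arms (Sox17 shRNA minus control) by day for each gene, with bars giving the SE of the fit and filled points marking a limma adjusted p below 0.05. The filled points are Dnmt3a on day 0, which rests on 1 Sox17 shRNA array, and Uhrf1 at days 4 and 5; Dnmt3b lies below 0 from day 2 to day 10 without passing at any single day.

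Of 39 other genes of DNA methylation, 34 were tested. In the control arm on day 2, 6 were higher and 10 lower, where 32.1% of all genes were called, with a median of -0.14 beside 0.02 over all genes. The risen genes of largest size were Zbtb33, a reader of methylated DNA (1.83), Mbd1 (0.53), Mbd3 (0.48) and Cxxc1, which binds unmethylated CpG (0.48). The fallen ones were Prdm14, a repressor of the de novo methyltransferases in mouse embryonic stem cells (-3.45), Dppa3, which protects methylation in the zygote (-2.46), Idh2, which makes the Tet cofactor (-1.98), and Zfp57, which guards imprints (-1.43). On day 10, 9 were higher and 17 lower, where 71.5% of all genes were called, with a median of -0.34. The risen ones were led by Zbtb33 (2.52), the methyl-CpG binder Mbd2 (2.01), Cxxc4 (1.48) and Uhrf2 (1.22), and the fallen ones by Dppa3 (-4.12), Prdm14 (-3.87), Zfp57 (-1.96) and Apobec1 (-1.82). All of these passed the limma test over 13297 genes, while Tet3, a further oxidase, did not (-0.30 on day 10, SE 0.18).

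Between the arms, averaged over days 4 to 10, 8 of the 34 were higher and 5 lower in the Sox17 shRNA arm, beside 27% of all genes called. The higher ones were led by Dppa3 (1.61, SE 0.24), Gadd45a, a DNA repair gene linked to demethylation (0.76, SE 0.14), Gadd45g (0.54) and Prdm14 (0.44). The lower ones were led by Ogt, which binds Tet proteins (-0.32), Ehmt1 (-0.24), Zbtb33 (-0.24) and Idh2 (-0.23). On day 0 the single Sox17 shRNA array had Gadd45g higher (2.28) and Prdm14 lower (-1.17) than the controls.

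**Figure D5:**
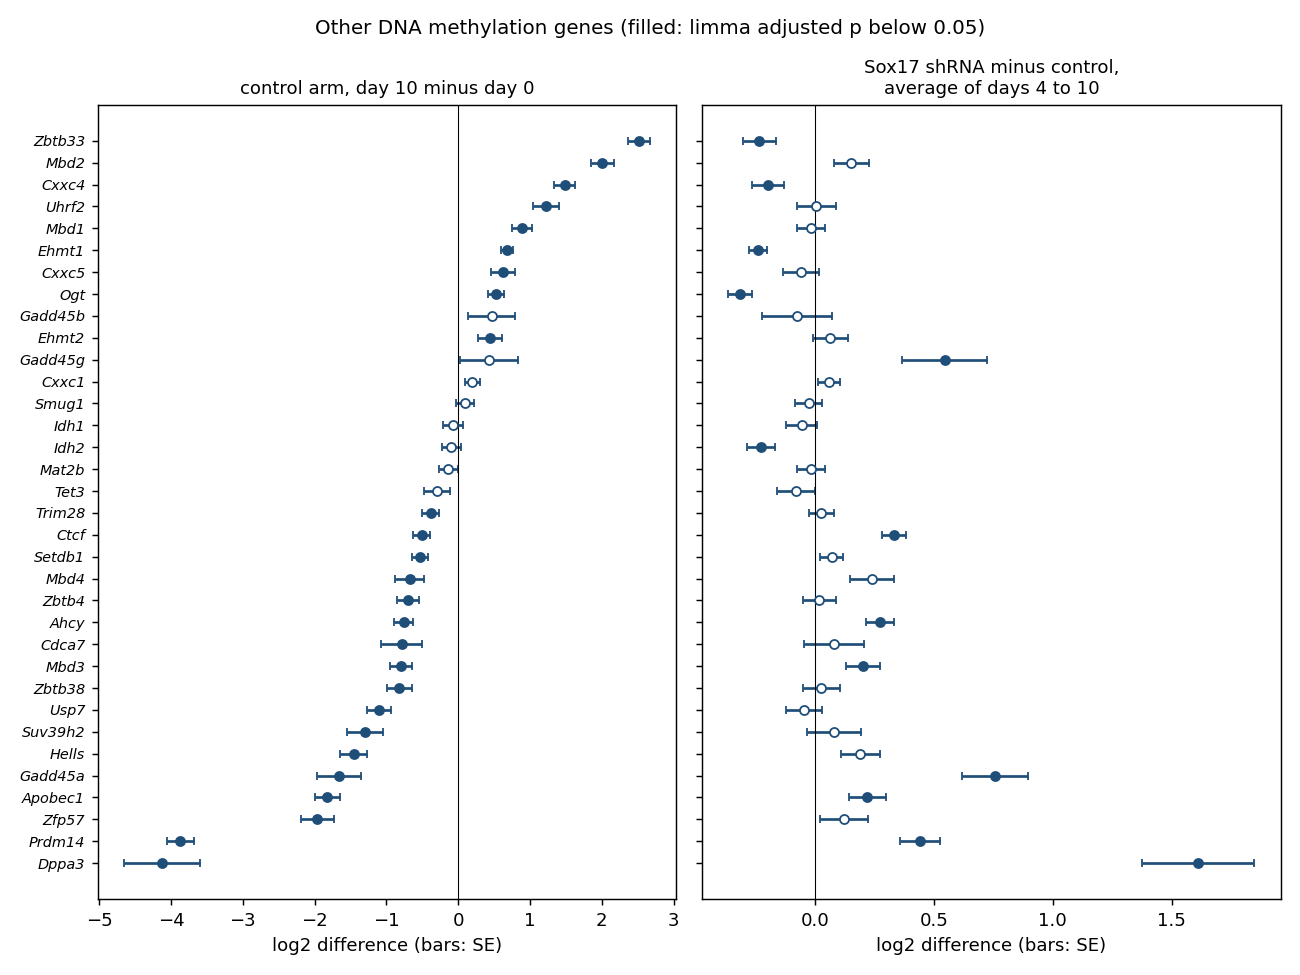
Log2 differences of the 34 other DNA methylation genes tested, ordered by the control arm's change from day 0 to day 10 (left) and beside it the Sox17 shRNA minus control difference averaged over days 4 to 10 (right), with bars giving the SE of the fit and filled points a limma adjusted p below 0.05. Zbtb33 is highest (2.52) and Dppa3 lowest (-4.12) on the left, and Dppa3 is the highest on the right (1.61).

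The states through which the cells passed were read from marker lists. Of 14 genes of the naive pluripotency list, which also holds Pou5f1, Sox2 and Tdgf1, 11 had fallen and none had risen on day 2 of the control arm. The median was -2.87, led by Klf4 (-4.55), Klf2 (-4.15) and Tfcp2l1 (-3.94), where 32.1% of all genes were called. The mean level of the list on day 0 was 11.13 and 11.11 in control arrays and 10.70 on the Sox17 shRNA array. Of 9 primed epiblast genes, Dnmt3b among them, 8 had risen, led by Fgf5 (5.67), Sall2 (4.08) and Pou3f1 (3.27). The median of 3.03 is the value of Dnmt3b itself. Averaged over days 4 to 10, 3 of these 9 were lower with Sox17 shRNA and none higher, beside 27% of all genes called. The 3 were Otx2 (-1.67), Cldn6 (-1.19) and Dnmt3b (-0.47). On day 10 the mean level of the list was 6.13 on Sox17 shRNA replicate 1, the array with the low Dnmt3b value of 8.08, 7.01 on replicate 2, and 7.27 and 7.28 in controls. Dnmt3b is 1 of the 9 genes in this mean, so the mean is not independent of the Dnmt3b value. The part of the list's shift in the Dnmt3b difference was not tested. Of 16 germline genes known to be silenced by promoter methylation, 9 passed the filter on low signal and 7 did not. The mean level of the 9 in control arrays was 6.38 and 6.28 on day 0, 5.84 and 5.70 on day 2, and 4.24 and 4.39 on day 4. Genes below the filter level on day 4 were kept through their signal on other arrays, so the filter itself favours a fall in this mean. The fall is therefore not read as a result, and no count of falls is given for this list.

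Uhrf1 and Dnmt1 act at replication. Of 19 tested genes of the replication and cell cycle list, 17 were lower on day 10 than on day 0 of the control arm (median -0.92), where 71.5% of all genes were called, led by Mcm5 (-1.60), Gmnn (-1.51) and Mcm2 (-1.33), whereas on day 2, 1 was lower and 1 higher. Between days 4 and 10 of the control arm, 18 of the 19 were lower (median -0.57), where 52.3% of all genes were called. Dnmt1 differed by 0.38 (limma adjusted p = 0.0282) and Uhrf1 by 0.02 over these days. The Dnmt1 call was not kept in every fit without 1 array. In control arrays the second Dnmt1 probe set averaged 9.19 on day 4 and 9.47 on day 10, and the third 7.74 and 7.67. In the Sox17 shRNA arm 17 of the 19 were lower (median -0.88), where 55.0% of all genes were called, and Dnmt1 differed by 0.04 and Uhrf1 by -0.77. Between the arms 4 of the 19 were higher on day 5, Mcm2 among them (0.95), where 9.39% of all genes were called. On average over days 4 to 10, 6 of the 19 were higher, beside 27% of all genes called. These were led by Mcm2 (0.69), Mcm5 (0.38) and Rrm2 (0.35). None was lower in either comparison. The mean level of the list was 10.82 and 10.50 on the Sox17 shRNA arrays of day 5 against 10.45 and 10.36 in controls.

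Genes of the naive pluripotency list, which is not limited to naive genes, differed between the arms when Uhrf1 did and also on later days. Of its 14 genes, 5 were higher on day 4, where 5.14% of all genes were called, and 5 on day 5, where 9.39% were. Among them were Zfp42 (2.23 and 2.24), Tdgf1 on day 5 (2.74) and Nanog on day 5 (2.28). The mean level of the list was 8.25 and 8.54 on the Sox17 shRNA arrays of day 4 against 7.54 and 7.80 in controls. On day 5 it was 8.06 and 6.996 against 6.70 and 6.63. On each of days 6, 8 and 10, 1 gene of the list was higher and 2 were lower, where 5.20%, 4.82% and 10.0% of all genes were called. Averaged over days 4 to 10, 7 were higher and 1 lower, beside 27% of all genes. All 8 cardiac muscle markers were lower in the Sox17 shRNA arm at days 8 and 10, with mean levels of 7.49 to 7.86 against 10.56 to 11.24. Of 10 fibroblast and mesenchyme markers, 5 were higher on day 10 (10.63 and 10.84 against 9.64 and 9.66). The share of all genes called was 4.82% on day 8 and 10.0% on day 10. Of 8 endoderm markers 5 were lower on average over days 4 to 10, and of 8 blood and endothelial markers 4 were higher. Of all genes, 27% were called for that average. The part of these shifts in the Dnmt3b and Uhrf1 differences was not tested.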

How the data were processed

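Gene expression was measured on 27 Affymetrix arrays of mouse embryoid body RNA. The deposited value table holds log2 values from RMA (background correction, quantile normalization and probe summary), per the submitters' processing notes, ranging from 2.66 to 14.48 with array medians of 5.50 to 5.56. The number of arrays limits the precision. Of 45101 probe sets, 34958 had 1 gene symbol in the platform annotation, 932 several and 9211 were unlisted. Probe sets with 1 symbol above 5.53, the median of all values, on at least 2 arrays were kept (23536), and each gene was represented by the one with the highest mean. Fits used limma 3.58.1 in R 4.3.3 with 14 group means, 13 residual degrees of freedom, empirical Bayes moderation with an intensity trend and Benjamini-Hochberg adjustment over 13297 genes. Probe sets were also tested together, adjusted over all 23536. The fit was tested on simulated data first. The named genes were the 7 members, up to 4 called genes per direction of the machinery list, up to 3 called genes of each other list, the 3 genes most like each member, and Sox17. Other genes are given as list counts. The members and lists were chosen with earlier results of these data known. The comparison of days 2 and 4, the average of days 6 to 10, the subtraction of day 2 and the variation over days 2 to 10 were added after the data were seen. Replicate numbers recur in both arms. The correlation of same-numbered deviations between the arms was 0.683 on day 4 and from 0.0986 (day 10) to 0.220 (day 5) on the other days. As it was not above 0.1 on every day, the numbers were not taken to pair the arrays. The consensus correlation within day and replicate number was 0.295, and calls with that block are given among the alternatives. Alternatives were other probe sets, filters, moderation, array weights, centring, a replicate block, spike-in and RNA quality covariates, and leaving out each array. Promoter sequences are from RefSeq (GRCm38.p6).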

Additional observations from a re-analysis of the deposited data

Results flagged for a closer look

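The Dnmt3a difference between the arms varied over the 7 days (limma adjusted p = 0.0102). It was 1.07 at day 0, with 1 Sox17 shRNA array, -0.23 at day 2 and between -0.17 and 0.37 from day 4 on. Over days 2 to 10 alone the variation did not pass (adjusted p = 0.383).

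The Uhrf1 change from day 4 to day 10 differed between the arms by -0.79 (SE 0.20, limma adjusted p = 0.0286). It was 0.02 in the control arm and -0.77 in the Sox17 shRNA arm. The second Uhrf1 probe set gave -0.31 (adjusted p over all probe sets = 0.841). Without 1 array the first probe set gave -0.89 to -0.69, and with array weights it was not called.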

How the results depend on the processing

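The 7 members under every alternative gave 2928 values. Of these, 2798 kept their side of the threshold, 78 no longer passed and 27 newly passed. Values within like spike-in signal have no p-value, and those within the gene's spread between replicates (SD) of the reported value are counted as kept. Of them 1 moved further (Tet2 from day 4 to day 10 with Sox17 shRNA, 2.22). A further 24 values reversed with a call on either side, all with other probe sets. Of the 2798, 84 changed sign with no call on either side, 36 of them without 1 array. The Tet1 probe set below the filter gave 0.22, 0.32, 0.15 and 0.028 for days 2, 4, 8 and 10 against day 0 and 0.11 for day 4 against day 2. Dnmt3a probe set 5 gave 0.83, 0.41, 1.17, 2.59 and 3.02 for days 4, 5, 6, 8 and 10 against day 0, 2.20 and 2.85 for day 10 against day 4 (control, Sox17 shRNA), 0.53 and 0.51 for day 4 against day 2, and -0.11 between the arms at day 0. Dnmt3a probe set 3 gave 0.61, 1.85 and 2.20 at days 6, 8 and 10, and 2.06 and 2.37 from day 4 to day 10, and probe set 4 gave 0.33 at day 10 and 0.49 from day 4 to day 10 with Sox17 shRNA. The third Dnmt1 probe set gave -0.0776 (control) and -0.46 (Sox17 shRNA) from day 4 to day 10. The cause was not tested.

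With the second probe set of each gene, members called between the arms fell to 0 at days 0, 4 and 5, to 1 on average, and to 0 for the variation over days and for the day 4 to day 10 difference, and from 5 to 3 for control day 10 against day 4, which was also 3 with the spike-in covariate. With array weights the counts were 2 at day 0, 1 at day 2, 0 at day 4, 2 for the variation over days and 0 for the day 4 to day 10 difference. The replicate block, which does not rest on an established pairing, gave 2 for the variation over days, and a block within day gave 2 each at days 0, 4 and 5 and for that variation. With the replicate block the Uhrf1 difference at day 4 was 0.55 (adjusted p = 0.0133), and with array weights its adjusted p was 0.506. Over days 2 to 10 alone the variation was called for 0 members and for 696 genes. The spike-in covariate gave 2 for the variation over days. Leaving out 1 array gave 0 to 1 members at days 4, 5 and 10 and for the day 4 to day 10 difference, 1 to 2 for the variation over days, and 3 to 5 for control day 10 against day 4 (3 without control replicate 1 of day 10).

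Counts over all genes moved further. Genes called between the arms at day 4 were 684, against 10 with array weights, 1433 with the block within day and 216 to 1217 without 1 array. They were 251 at day 0, against 166 with the stricter filter and 1242 with array weights, 338 at day 2, against 821, and 1330 at day 10, against 2866. At day 5 they were 1249, against 2175 with the block within day, at day 6 691 against 1303, and at day 8 641, against 389 with the stricter filter. Without 1 array they were 76 to 152 at day 0, 68 to 152 at day 2, 315 to 1710 at day 5, 229 to 652 at day 6, 309 to 704 at day 8 and 540 to 1007 at day 10. The variation over days was called for 898, against 492 and 1937, and the day 4 to day 10 difference for 513, against 235 and 1151, and without 1 array 583 to 1385 and 249 to 820. The Sox17 shRNA arm gave 7316 from day 4 to day 10, against 4850, and 3117 from day 2 to day 4, against 1193, both with array weights. With 2 arrays per group, small differences between the arms on single days could pass or miss the threshold with 1 array.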
